A study of Homo sapiens with 24 samples.

Results

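Expression was examined for 35 human genes of the Fanconi anemia pathway of interstrand crosslink repair and of homologous recombination. They were listed by gene symbol with earlier results of these data known, although no measured value entered the rule, and all 35 were found in the deposited tables. The count table, 33113 genes in alphabetical order up to SETP6, holds 34 of them, and SLX4 was taken from a second table of 37967 genes. By role, the list has 8 genes of the Fanconi anemia core complex and its anchor, the pair FANCD2 and FANCI, 5 nuclease genes, 5 BRCA genes and partners, 3 genes of the paralog group RAD51B, RAD51C and RAD51D, 4 genes of strand exchange and annealing (RAD51AP1, RAD52, RAD54L and RAD54B), 3 genes of joint molecule dissolution and 5 of DNA end resection.

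RNA was sequenced from 24 samples, 3 per group, which their titles call biological replicates. HCT116, a human colorectal carcinoma cell line, and HCT116 oxpl-R, a line selected from it by repeated pulses of oxaliplatin, both carry a TetOn-E1A construct, so that every group shares the construct. In each line 1 group was left untreated, 1 received 0.5 µg/mL doxycycline to switch on adenoviral E1A, 1 received 25 µM oxaliplatin for 24 h, and 1 received doxycycline 3 h ahead of oxaliplatin. HCT116 oxpl-R is a single line, described by the study as hypotetraploid and mixed in chromosome number, so that line differences are those between these cell populations. No group without the construct received doxycycline, so that effects of doxycycline and of E1A cannot be told apart, and the E1A transgene is not among the human genes analysed here, so that its induction was not checked.

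As background, the Fanconi anemia pathway deals with crosslinks that tie both DNA strands together at a stalled replication fork. The core complex, built around FANCA, FANCB, FANCC, FANCE, FANCF, FANCG and the ubiquitin ligase FANCL and held at DNA by FANCM, attaches ubiquitin to FANCD2 and FANCI, after which nucleases such as those organised by SLX4 cut the crosslink out of one strand. The resulting break is resected by MRE11, RAD50, NBN, RBBP8 (CtIP) and EXO1, and BRCA1, BARD1, PALB2 and BRCA2 start recombination, in which the break is copied from the sister chromatid. Platinum drugs form crosslinks within a strand and, less often, between strands. Recombination relies on the sister chromatid, and many of these genes are transcribed mostly from late G1 to G2. E1A is known for binding the RB family of proteins, which hold E2F transcription factors in check.

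The count table sums to between 24838095 and 37927720 estimated counts per library. Values below are normalized counts, scaled to effective library sizes from TMM factors, and are given for replicates 1, 2 and 3 in that order. A gene is called where edgeR's quasi-likelihood test, in 1 fit of the 8 groups, gives a Benjamini-Hochberg p-value under 0.05 over all 19452 genes tested (22833 for SLX4). Statements that groups did or did not overlap describe the values printed. Most are on genes picked by these tests from the same values, so that they are no further support. How many of all genes do not overlap is not given here. In bulk RNA, fewer cells that express a gene and less RNA per cell cannot be told apart. The labelled cell type was checked by its markers. The 10 epithelial markers sum to between 5185 and 16403 CPM per library, led by KRT8, against 14.5 to 54.4 CPM for 7 fibroblast markers, led by COL1A1, and 1.2 to 7.27 CPM for 6 leukocyte markers, led by CD68. EPCAM, CDH1 and CDX2 were present in every group, while the colon markers CDX1, CEACAM5 and LGALS4 were at or near 0, and the fibroblast markers DCN, LUM and FAP and the leukocyte markers CD3E and PTPRC were near 0 as well.

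Several libraries stand apart. On log2(CPM + 1) of 9507 genes, HCT116 oxaliplatin replicate 3 and HCT116 E1A + oxaliplatin replicate 1 correlated most with each other (r = 0.978), above their mean correlation with their own groups (0.949 and 0.9502). In the list of 35 genes the first of these held the highest value of its group for 23 genes. Within HCT116 oxpl-R, replicate 3 held the highest value for 22 genes in the control group, 20 in the E1A group, 20 in the oxaliplatin group and 19 with both. Another 7 libraries were closest to a library outside their own group. Among them were all 3 of HCT116 oxpl-R with E1A, each of which was closest to an untreated library of that line. In HCT116 oxpl-R with oxaliplatin, replicate 2 was closest to E1A + oxaliplatin replicate 2 (r = 0.978). Replicate 3 of that group was closest to untreated replicate 3 (r = 0.965). Their mean correlations with their own group were 0.957 and 0.949. These libraries were kept, and results that turn on the first 2, both of HCT116, are also given without them. Whether any of these libraries were exchanged was not tested. If the first 2 were, the HCT116 values with oxaliplatin and with both agents would each mix conditions. The oxaliplatin libraries of HCT116 oxpl-R enter every result below that involves oxaliplatin alone in that line.

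**Figure D1:**
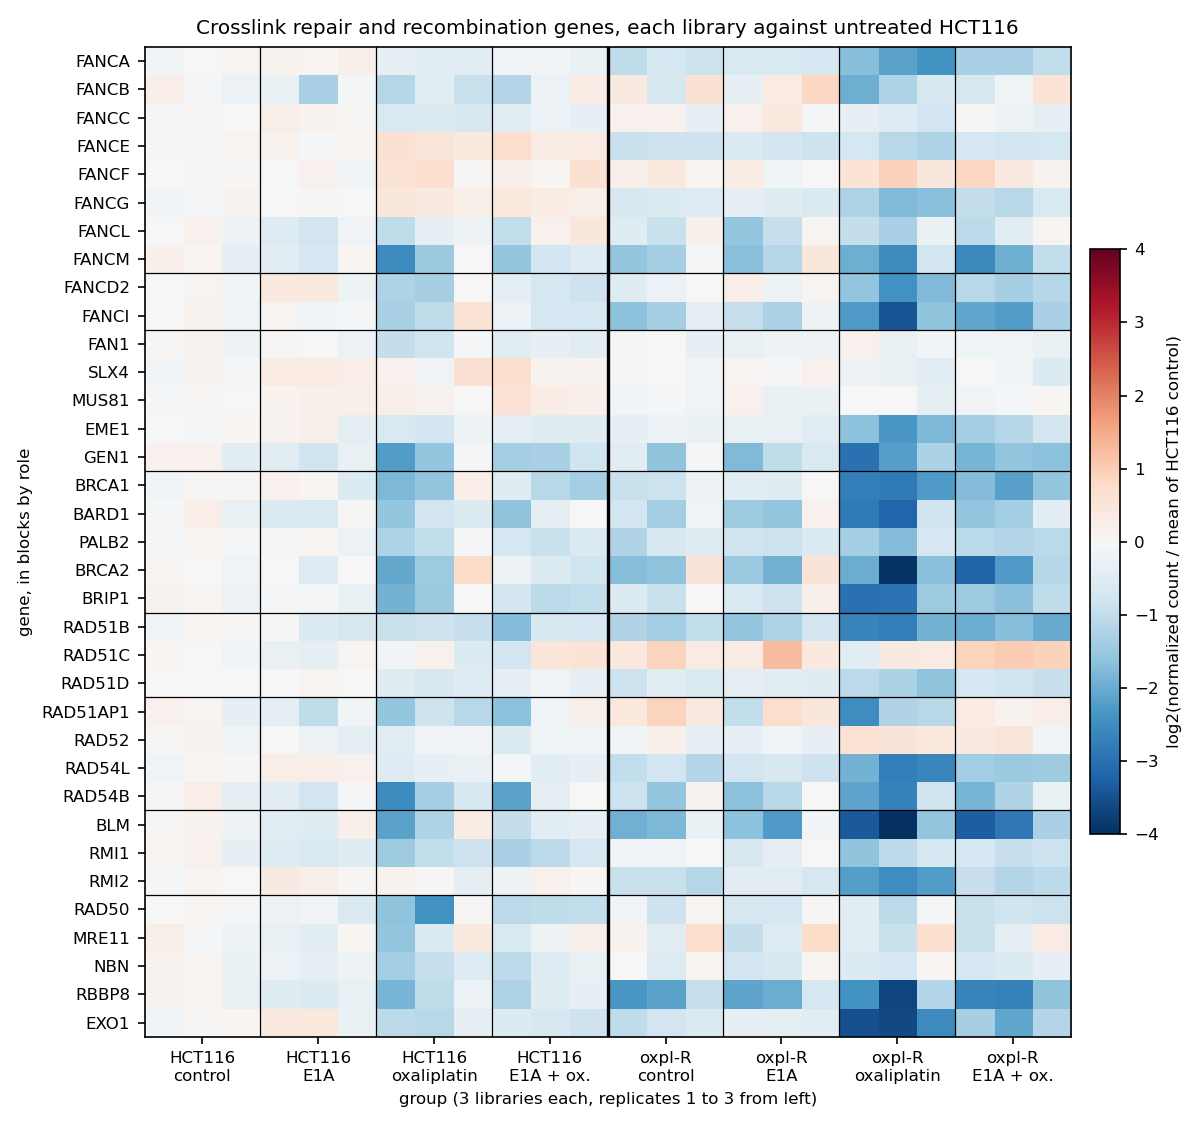
Heat map of the 35 genes (rows, in blocks by role) in 24 libraries (columns, 3 per group, replicates 1 to 3 from left), as log2 of the normalized count over the mean of untreated HCT116, blue below and red above it. The darkest blue lies in the oxaliplatin group of HCT116 oxpl-R, where EXO1 held 110.4, 103 and 218 normalized counts against 1175, 1296 and 1322 in untreated HCT116, and rows such as BRCA2, BLM and FANCM differ between replicates of a group.

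The promoters of 4 genes that carry the results below are shown because E1A is known to act on RB and E2F and because these genes all fell with oxaliplatin in HCT116 oxpl-R. The sequences are from RefSeq on GRCh38.p14, each 300 bases from 250 before to 50 after a start site, 5′ to 3′ on the gene's strand. They were searched on both strands for TTTCCCGC, TTTGGCGC, TTTGCCGC and TTTCGCGC, which are forms of the E2F site, and matches are in capitals.
EXO1, chr1:241847954-241848253, plus strand: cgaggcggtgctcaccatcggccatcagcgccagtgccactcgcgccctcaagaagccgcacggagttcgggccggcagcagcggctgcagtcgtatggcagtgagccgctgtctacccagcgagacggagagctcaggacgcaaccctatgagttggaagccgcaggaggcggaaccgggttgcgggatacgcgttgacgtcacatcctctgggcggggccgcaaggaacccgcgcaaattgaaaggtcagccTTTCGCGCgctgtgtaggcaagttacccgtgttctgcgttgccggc
FANCA, chr16:89816598-89816897, minus strand: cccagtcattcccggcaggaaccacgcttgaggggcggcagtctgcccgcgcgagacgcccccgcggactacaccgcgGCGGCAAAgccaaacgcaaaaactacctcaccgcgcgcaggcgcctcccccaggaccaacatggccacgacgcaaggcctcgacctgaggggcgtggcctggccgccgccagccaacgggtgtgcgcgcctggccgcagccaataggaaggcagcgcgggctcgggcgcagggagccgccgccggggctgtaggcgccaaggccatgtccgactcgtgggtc
FANCD2, chr3:10026187-10026486, plus strand: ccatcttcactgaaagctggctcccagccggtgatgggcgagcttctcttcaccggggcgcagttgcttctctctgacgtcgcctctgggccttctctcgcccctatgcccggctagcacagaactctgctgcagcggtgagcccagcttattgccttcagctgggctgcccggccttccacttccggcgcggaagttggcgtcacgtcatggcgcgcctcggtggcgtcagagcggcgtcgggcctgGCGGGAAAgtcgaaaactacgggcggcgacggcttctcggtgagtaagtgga
RAD51AP1, chr12:4538640-4538939, plus strand: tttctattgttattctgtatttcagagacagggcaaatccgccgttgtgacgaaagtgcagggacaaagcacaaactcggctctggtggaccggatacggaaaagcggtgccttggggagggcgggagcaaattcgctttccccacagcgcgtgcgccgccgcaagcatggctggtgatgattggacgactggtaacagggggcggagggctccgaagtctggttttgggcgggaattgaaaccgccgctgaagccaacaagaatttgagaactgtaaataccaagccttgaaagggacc
Of the 35 genes, 31 had a promoter in that table, and 6 of the 31 (19.4%) held at least 1 match: EXO1, GEN1, FANCD2, RMI1, FANCC and FANCA. Among all 27305 genes with a promoter there, 3.99% held one, and among all 35116 entries 3.31%. The match in EXO1 begins 4 bases after the start site and that in FANCD2 overlaps the start site. RAD51AP1 has no exact match to these 4 forms in its window, nor do FANCG, RAD54L, EME1 and BRCA1, which also fell with oxaliplatin in HCT116 oxpl-R, so that the 4 sequences shown hold matches more often than the list. Other forms of the E2F site were not searched. The RAD51AP1 window holds gcgggaat, which differs from TTTCCCGC read on the other strand only in its last base. A match is a description of the sequence and not a measured binding site.

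Oxaliplatin in HCT116 oxpl-R cells lowered 15 of the 35 genes and raised none. Each of the 8 role groups held at least 1 of them. They were FANCA, FANCB and FANCG of the core complex, FANCD2 of the ubiquitinated pair, the nuclease genes EME1 and GEN1, BRCA1 and its helicase partner BRIP1, the paralogs RAD51B and RAD51D, RAD51AP1 and RAD54L, which help strands to pair, RMI1 and RMI2, which serve the dissolution of joint molecules with BLM, and EXO1, a resection exonuclease. Across all genes tested, 3.01% were called lower and 3.1% higher, and among the 8863 genes with a mean of at least 100 counts 5.69% were lower. The median log2FC of the 35 genes was −1.01, against 0 for all genes tested, and 32 of the 35 had a negative value.

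EXO1 (chromosome 1, 241847967 to 241895148, GRCh38) showed the largest decrease of the 35. Its normalized counts were 619.7, 748 and 838 in untreated HCT116 oxpl-R cells and 110.4, 103 and 218 after oxaliplatin (log2FC −2.35, SE 0.28, edgeR adjusted p = 3.36e-07). All 3 treated libraries lay far below all 3 untreated ones. RAD51AP1 (chromosome 12, 4538798 to 4560047), a cofactor of strand pairing, went from 1077, 1486 and 1027 to 143, 352 and 375 (log2FC −2.04, SE 0.39, edgeR adjusted p = 0.000568). Replicate 1 was the lowest, and the groups did not overlap. BRCA1 (chromosome 17, 43044295 to 43170245), which directs resection and recombination, went from 336, 346 and 544 to 93.3, 87.8 and 131 (log2FC −1.97, SE 0.37, edgeR adjusted p = 0.000512), again without overlap. FANCD2, the ubiquitinated hub of the pathway, fell from 1127 ± 183 to 360.1 ± 101 (mean ± SD, n = 3; log2FC −1.65, SE 0.27, edgeR adjusted p = 0.0001). EME1, the partner of the nuclease MUS81, fell from 593 ± 22.8 to 193 ± 44.9 (log2FC −1.62, SE 0.22, edgeR adjusted p = 5.21e-06), whereas MUS81 itself had values of 789.9, 828 and 762 before and 839.9, 851 and 652 after (log2FC −0.02, SE 0.18, edgeR adjusted p = 1). The groups of MUS81 overlapped.

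Other genes were not called. RAD50, MRE11 and NBN, the 3 subunits of the complex that first recognises a break, had log2FC of −0.25, −0.29 and −0.24. The nuclease genes FAN1 and SLX4 had 0.05 and −0.25, and the core complex genes FANCE and FANCF −0.14 and 0.42. RAD52, a mediator of annealing, had the highest value of the list, 452, 564 and 392 before and 733, 692 and 658 after (log2FC 0.56, SE 0.20, edgeR adjusted p = 0.11), with no overlap between the groups. BRCA2 and BLM had large estimates with wide errors (log2FC −1.71, SE 0.65, and −1.51, SE 0.60), and their untreated libraries alone ranged from 80.2 to 369 and from 162 to 515 normalized counts. Of the 15 calls, 11 held under all 32 alternatives, and FANCB, GEN1, RAD51B and RAD51D did not.

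The same treatment of HCT116 cells gave 8 calls among the 35 genes. Of these, 7 fell, FANCC, RAD51B, RAD51D, RAD51AP1, RMI1, NBN and EXO1, and 1 rose, FANCE. Across all genes tested 8.61% were called lower and 8.74% higher, and of those with a mean of at least 100 counts 17.3% were lower, so that 7 of 35 lay near that background. The median log2FC was −0.60, and it ran from −0.94 to −0.35 with single libraries left out. RAD51AP1 had 912, 867 and 634 normalized counts in control cells and 278, 451 and 370.4 with oxaliplatin (log2FC −1.13, SE 0.38, edgeR adjusted p = 0.0345). RMI1, a scaffold of the BLM complex, went from 1086, 1116 and 799.6 to 371, 510.5 and 564 (log2FC −1.05, SE 0.23, edgeR adjusted p = 0.00175). RAD51B went from 207, 253 and 239 to 125, 131 and 122 (log2FC −0.89, SE 0.28, edgeR adjusted p = 0.0283). All 3 fell without overlap between the groups. FANCE, which bridges the core complex to FANCD2, moved the other way, from 1104, 1127 and 1273 to 1797, 1639.8 and 1518 (log2FC 0.50, SE 0.17, edgeR adjusted p = 0.044).

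The calls in HCT116 depended on single libraries. BRCA1 had 583, 653 and 641 normalized counts in control cells and 179, 210.1 and 747 after oxaliplatin, and FANCI 2028, 2197 and 1807 and 812, 994 and 2914. In both, replicates 1 and 2 were low and replicate 3 was above every control. Without HCT116 oxaliplatin replicate 3 alone, 15 of the 35 genes were called in place of 8, 13 of them lower, where 11.3% of all genes and 22.5% of those with a mean of at least 100 counts were called lower. Without it and HCT116 E1A + oxaliplatin replicate 1, a choice made after seeing the data, 19 were called, 16 of them lower, where 12.1% of all genes and 23.8% of those with a mean of at least 100 counts were lower, with BRCA1 at a log2FC of −1.58 and BRIP1 at −1.58. An index of library composition, the median deviation of long transcripts (over 5000 bases) minus that of short ones (under 2000), was −0.60, −0.52 and 0.43 in replicates 1, 2 and 3 of this group and 0.35, 0.45 and 0.29 in the controls. A similar index, low minus high GC content, was −0.77, −0.52 and −0.33 in this group and 0.37, 0.41 and 0.11 in the controls. On this GC index all 3 treated libraries lay below all 3 controls, so that as a covariate it overlaps with the treatment. With both indices as covariates, also added after seeing the data, 2 of the 35 genes were called, both lower. In that fit 2.64% of all genes and 5.46% of those with a mean of at least 100 counts were lower, and the median log2FC of the list was 0.07. RAD51AP1, which had the largest decrease among the called genes without the covariates, had a log2FC of 0.24 with them. Leaving out any single control, or oxaliplatin replicate 1 or 2, left between 1 and 4 of the 35 called, and 5 were called without HCT116 oxpl-R control replicate 1. For these fits the share of all genes called is not given here. None of the 8 calls held under all 32 alternatives. With the replicate number as a block 19 genes were called, 18 of them lower, where 24.4% of the genes with a mean of at least 100 counts were lower, and in HCT116 oxpl-R 19 were called, all lower, where 6.65% were. In HCT116, however, the deviations of same-numbered libraries correlated negatively (r = −0.208, −0.143 and −0.292), so that the numbers show no pairing there.

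The difference between the 2 responses was tested by the interaction term. It was below 0 for 5 called genes and above 0 for none, where 2.78% of all genes tested and 5.49% of those with a mean of at least 100 counts were called in either direction. Without the 2 HCT116 libraries that stand apart, 9 were called, 7 below 0 and 2, FAN1 and RAD50, above 0, where 12.5% and 7.04% of the genes with a mean of at least 100 counts were called. FANCG, a core complex scaffold, had 2521, 2609 and 2963 normalized counts in untreated HCT116 and 3675, 3495 and 3144 after oxaliplatin, while in HCT116 oxpl-R it went from 1735, 1830.1 and 1883 to 1156, 787 and 854. The difference of the responses was −1.31 (SE 0.23, edgeR adjusted p = 0.0012). The 3 treated libraries lay above all controls in HCT116 and below all controls in HCT116 oxpl-R. RMI2, the small stabilising subunit of the BLM complex, had 574, 653 and 608 and 671, 627 and 476 in HCT116, and 332, 329 and 275 and 131, 109 and 130.2 in HCT116 oxpl-R (difference −1.29, SE 0.28, edgeR adjusted p = 0.00782). RAD54L, a motor protein of strand exchange, had 1028, 1201 and 1159.8 and 789.9, 903 and 948, then 569, 659 and 503 and 306, 165 and 184 (difference −1.04, edgeR adjusted p = 0.038). In both RMI2 and RAD54L the treated and untreated libraries of HCT116 oxpl-R did not overlap, and in HCT116 those of RMI2 did. EXO1 and EME1 had differences of −1.58 and −1.12 (edgeR adjusted p = 0.0154 and 0.0386).

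**Figure D2:**
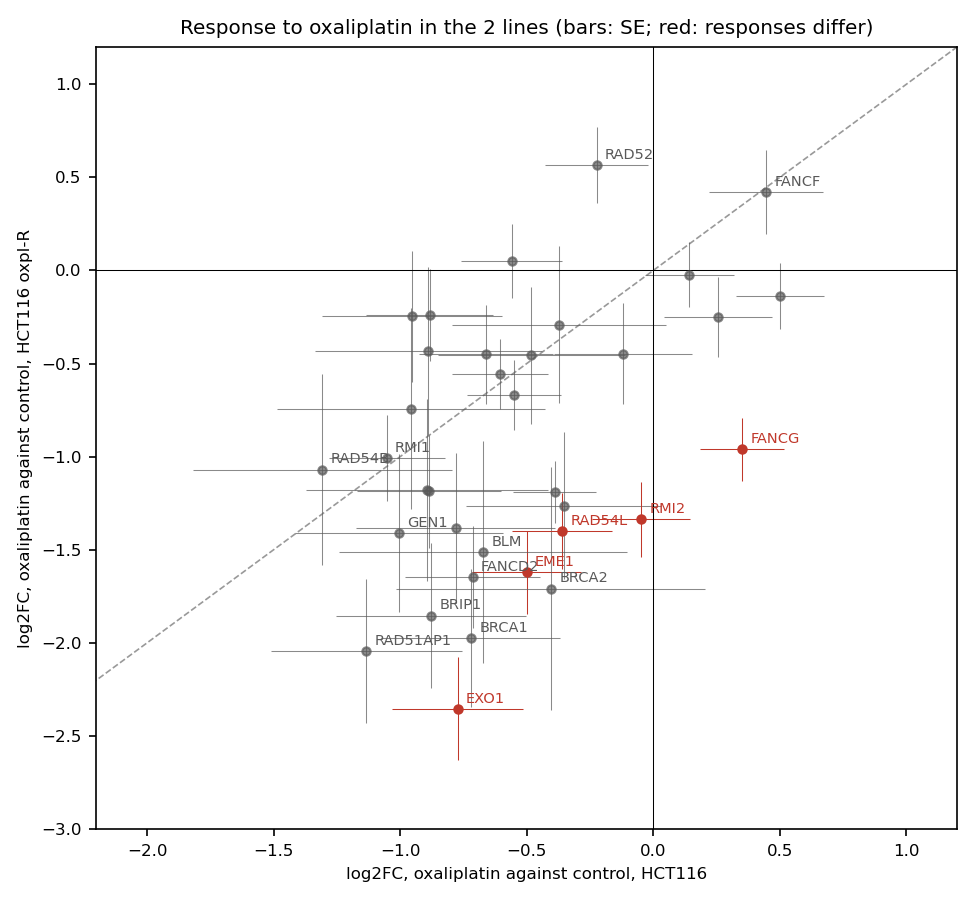
Log2FC of the 35 genes with oxaliplatin against control in HCT116 (x axis) and in HCT116 oxpl-R (y axis), with SE bars, and a dashed line where both responses are equal. The 5 genes in red, FANCG, RMI2, RAD54L, EME1 and EXO1, have an adjusted p-value below 0.05 for the difference and lie below the dashed line.

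The calls for FANCG and RMI2 held under all 32 alternatives, while those for EME1 and RAD54L were lost with only the 4 groups compared. With the library indices as covariates 3 of the 5 calls were kept, and other genes of the list were called. DESeq2 kept all 5 and called further genes. Without HCT116 control replicate 1, 2 of the 35 were called, and 3 were called without HCT116 control replicate 2 or 3, HCT116 E1A replicate 1 or 2, HCT116 oxpl-R control replicate 2 or HCT116 oxpl-R oxaliplatin replicate 2. These counts are not set against a background, as the share of all genes called in those fits is not given here. For 12 of the 35 genes the difference was above 0 without a call, RAD52 having the highest value (log2FC 0.79, SE 0.29, edgeR adjusted p = 0.153).

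Before any treatment, 9 of the 35 genes were lower in HCT116 oxpl-R than in HCT116 and none was higher. Among all genes tested 6.93% were called lower and 7.19% higher, and among those with a mean of at least 100 counts 13.5% were lower. The median log2FC of the list was −0.54, with 29 genes below 0, and it ran from −0.68 to −0.25 with single libraries left out, −0.25 without HCT116 oxpl-R control replicate 2. The 9 were FANCA, FANCE and FANCG, RAD51B and RAD51D, RAD54L, RMI2, RBBP8 and EXO1, while neither FANCD2 nor FANCI, no nuclease gene and no BRCA gene was called. RBBP8 (chromosome 18, 22798261 to 23026488), which starts resection with the MRE11 complex, had 1631, 1613 and 1209 normalized counts in HCT116 and 297, 339 and 789 in HCT116 oxpl-R (log2FC −1.64, SE 0.46, edgeR adjusted p = 0.0131). Replicate 3 of the resistant line was more than the other two together, yet still below every HCT116 library. RAD51B (chromosome 14, 67819779 to 68730218) had 207, 253 and 239 against 101, 88.8 and 117 (log2FC −1.19, SE 0.29, edgeR adjusted p = 0.00414). RAD54L (chromosome 1, 46246461 to 46278480) had 1028, 1201 and 1159.8 against 569, 659 and 503 (log2FC −0.97, SE 0.20, edgeR adjusted p = 0.000825). RMI2 had 574, 653 and 608 against 332, 329 and 275 (log2FC −0.97, SE 0.20, edgeR adjusted p = 0.00064). The lines did not overlap in any of these genes.

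Against their role groups, RAD51C and RAD51AP1 had higher values in HCT116 oxpl-R that were not called. RAD51C, the paralog found in both paralog complexes, had 1714, 1622 and 1492 in HCT116 and 2161, 3005 and 2041 in HCT116 oxpl-R (log2FC 0.58, SE 0.27, edgeR adjusted p = 0.179), and RAD51AP1 912, 867 and 634 and 1077, 1486 and 1027 (log2FC 0.57, SE 0.37, edgeR adjusted p = 0.372). Gene position was considered because the lines differ in chromosome content. Set against the median log2FC of the expressed genes of its own chromosome, 27 genes lay below that median and 8 above, with a median difference of −0.32. FANCA on chromosome 16 had a log2FC of −0.86 where its chromosome's median was −0.30. How far gene dosage enters these values was not tested. Calls for FANCA, FANCE, RAD51B and RMI2 held under all 32 alternatives, 15 genes were called when only the 2 untreated groups were fitted, and 5 without HCT116 oxpl-R control replicate 1. Of the 15, 13 were lower and 2 higher, where 24.6% and 20% of the genes with a mean of at least 100 counts were called, and all 5 were lower, where 10.2% were.

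With oxaliplatin in both lines, 15 genes were lower in HCT116 oxpl-R and 1, RAD52, was higher. Across all genes tested 12% were called lower and 13.7% higher, and 22.6% were lower among those with a mean of at least 100 counts. The median log2FC was −0.73, from −1.30 to −0.50 with single libraries left out, and 14 of the 15 decreases were larger than 2-fold. In this comparison same-numbered libraries deviated together, and with the replicate number as a block 19 genes were called, 18 of them lower, where 24.3% of the genes with a mean of at least 100 counts were lower. The 3 added were BARD1 (log2FC −1.19), RBBP8 (−1.25) and SLX4 (−0.56). The block is an effect of replicate number shared by all 8 groups, so that it also covers groups whose same-numbered libraries did not deviate together. EXO1 had 609, 592 and 1017 normalized counts in HCT116 against 110.4, 103 and 218 in HCT116 oxpl-R (log2FC −2.36, SE 0.28, edgeR adjusted p = 8.23e-08). RMI2 had 671, 627 and 476 against 131, 109 and 130.2 (log2FC −2.26, SE 0.21, edgeR adjusted p = 7.02e-10). RAD54L had 789.9, 903 and 948 against 306, 165 and 184 (log2FC −2.01, SE 0.21, edgeR adjusted p = 8.26e-09). In all 3 genes the highest library of HCT116 oxpl-R held less than the lowest of HCT116. RAD52 had 367, 438 and 449 against 733, 692 and 658 (log2FC 0.73, SE 0.21, edgeR adjusted p = 0.00734) and was the one called gene to go up.

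**Figure D3:**
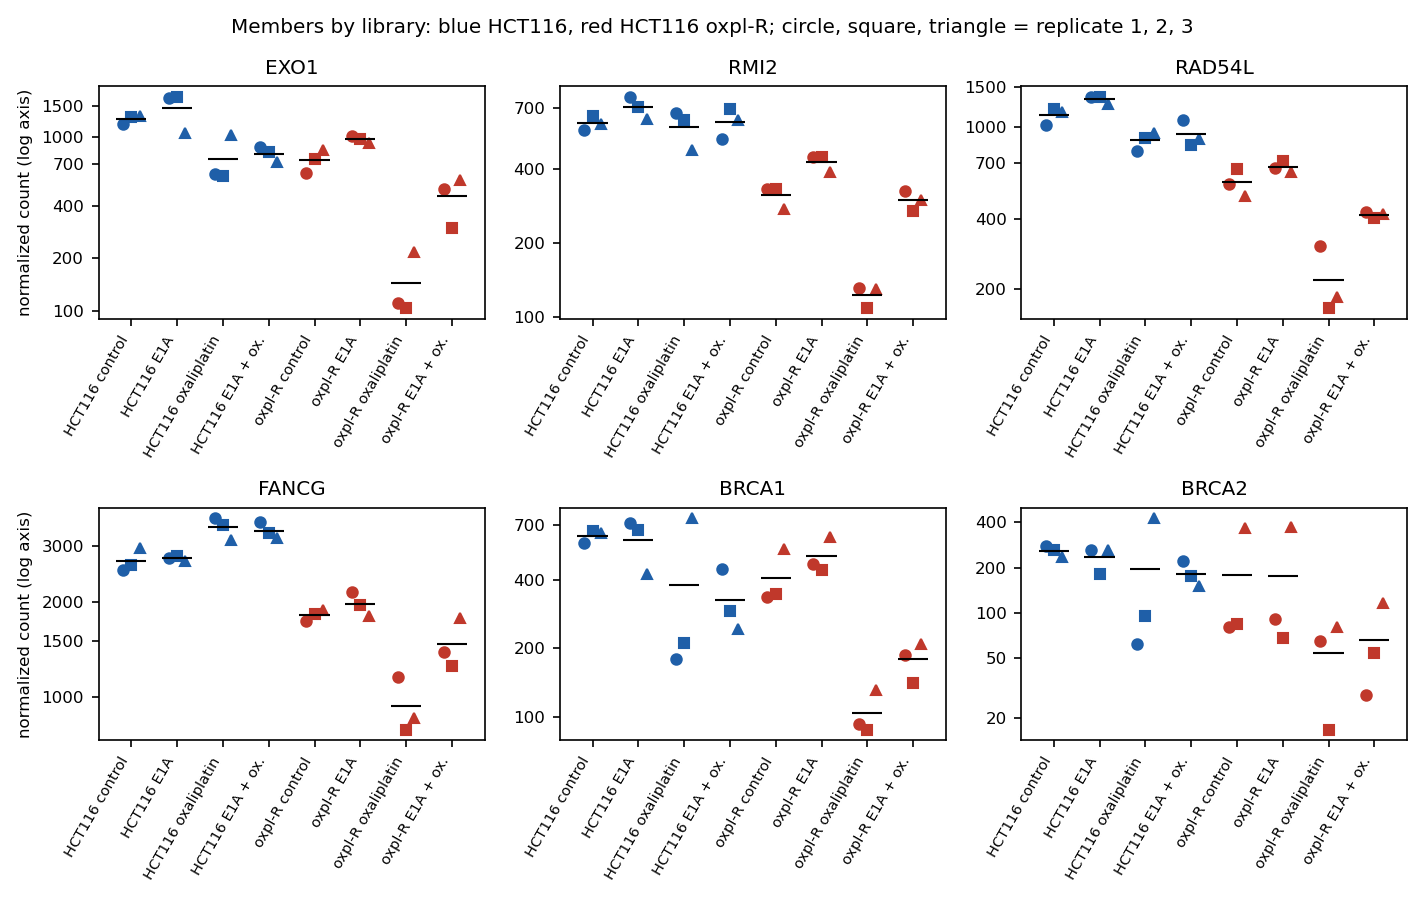
Normalized counts (log axis) of EXO1, RMI2, RAD54L, FANCG, BRCA1 and BRCA2 in all 24 libraries, with symbols for replicates 1 to 3 and a line at the group mean. In EXO1, RMI2, RAD54L and FANCG the oxaliplatin group of HCT116 oxpl-R has the lowest mean, while BRCA2 ranges from 61.9 to 427 within the oxaliplatin group of HCT116.

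Both ubiquitinated partners, FANCD2 (log2FC −1.16, SE 0.27, edgeR adjusted p = 0.00135) and FANCI (log2FC −1.91, SE 0.40, edgeR adjusted p = 0.000458), were lower, as were BRCA1, BRCA2 and BRIP1 among the BRCA genes, whereas BARD1 (log2FC −0.98) and PALB2 (−0.53) were not called without the block. Here too 1 library weighed on some genes. BRCA2 had 61.9, 94.5 and 427 against 65.2, 16.7 and 80.9, and BLM, the helicase lost in Bloom syndrome, 139.5, 264 and 754 against 60.2, 33.4 and 208. Without the 2 HCT116 libraries that stand apart, BRCA2, BLM and BRIP1 lost their calls (log2FC −0.59, −1.06 and −0.65), FAN1, RAD50 and NBN were called higher, and 13 of the 16 calls remained. This comparison shares its oxaliplatin libraries with the 2 responses above, so that its values are not a separate observation of the same decrease.

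With doxycycline in both lines (the E1A groups), 5 genes were lower in HCT116 oxpl-R, FANCA, FANCE, FANCG, RAD54L and RMI2. Another 1, RAD51C, was higher, where 7.75% of all genes were called lower and 6.69% higher. Among the genes with a mean of at least 100 counts 15.4% were lower, so that 5 of 35 did not exceed that background. RAD54L had 1359, 1348 and 1264 normalized counts in HCT116 and 663, 717 and 643 in HCT116 oxpl-R (log2FC −0.97, SE 0.20, edgeR adjusted p = 0.000898), FANCE 1274, 1130.0 and 1264 and 785, 694 and 659 (log2FC −0.78, SE 0.17, edgeR adjusted p = 0.00221), and RAD51C 1319, 1264 and 1749.8 and 2031, 3796 and 2089 (log2FC 0.87, SE 0.27, edgeR adjusted p = 0.0295). None of these genes overlapped between the lines. With E1A and oxaliplatin together, 11 genes were lower and none higher, where 8.92% and 10.3% of all genes and 17.1% and 16.9% of those with a mean of at least 100 counts were called. The largest differences were those of BLM (log2FC −1.64, SE 0.59, edgeR adjusted p = 0.0469), RBBP8 (log2FC −1.59, SE 0.46, edgeR adjusted p = 0.0126) and FANCI (log2FC −1.28, SE 0.39, edgeR adjusted p = 0.0188), with FANCA, FANCE, FANCG, RAD51B, RAD51D, RAD54L, RMI2 and EXO1 between −1.19 and −0.54. FANCA and FANCE passed the test in all 4 comparisons of the lines and under all 32 alternatives in each. FANCA held 3318, 3232 and 3442 in HCT116 with E1A and 1985, 1961 and 1853 in HCT116 oxpl-R with E1A, and 2729, 2794 and 2511 and 1230.2, 1229 and 1516 with both agents. The 4 comparisons use different libraries of the same lines. With E1A 3 genes were called without HCT116 E1A replicate 1, and with both agents 6 without HCT116 oxpl-R E1A + oxaliplatin replicate 1 or 2. The share of all genes called in those fits is not given here. Of the 6 calls with E1A 3 held under all 32 alternatives, and of the 11 with both agents 5 did.

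Doxycycline alone moved none of the 35 genes past the threshold in either line. In HCT116, 0.422% of all genes were called higher and 0.0103% lower, and in HCT116 oxpl-R 0.226% and 0%. At an unadjusted p-value under 0.05 in edgeR's quasi-likelihood test there was 1 gene in each line, and DESeq2 called none. With only the 2 groups fitted in HCT116, RMI1 (log2FC −0.59) and RBBP8 (−0.49) were called lower. The share of all genes called in that fit is not given here, so these 2 calls are not set against a background. The median log2FC of the list was −0.13 in HCT116 and 0.07 in HCT116 oxpl-R. EXO1 held 1657, 1699 and 1047 normalized counts with E1A against 1175, 1296 and 1322 without in HCT116, and 1009, 969.5 and 925 against 619.7, 748 and 838 in HCT116 oxpl-R. In the resistant line the groups did not overlap, but the difference was not called (log2FC 0.40, SE 0.26, edgeR adjusted p = 0.952). The difference between the lines in this response gave no call among the 35 genes, where 0.0103% of all genes were called, and no gene of the list had an unadjusted p-value below 0.05.

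Added to oxaliplatin in HCT116 oxpl-R cells, doxycycline raised 7 of the 35 genes and lowered none. Across all genes tested 1.29% were called higher and 0.103% lower, and 2.35% of the genes with a mean of at least 100 counts were higher. The 7 were FANCA and FANCG, EME1, RAD51AP1, RAD54L, RMI2 and EXO1. Of these calls 2, those of RMI2 and EXO1, held under all 32 alternatives. The median log2FC of the list was 0.42, with 27 genes above 0. RAD51AP1 had 143, 352 and 375 normalized counts with oxaliplatin and 1005, 889.5 and 969.8 with both agents (log2FC 1.72, SE 0.38, edgeR adjusted p = 0.0113). EXO1 had 110.4, 103 and 218 and 498, 300.3 and 560.1 (log2FC 1.66, SE 0.27, edgeR adjusted p = 0.000338). RMI2 had 131, 109 and 130.2 and 326, 269 and 298 (log2FC 1.27, SE 0.20, edgeR adjusted p = 0.000203). In each of them every library with both agents lay above every library with oxaliplatin alone.

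Side by side with untreated HCT116 oxpl-R, EXO1 averaged 735 ± 109.8 normalized counts without treatment, 144 ± 64.4 with oxaliplatin and 453 ± 136 with both (SD, n = 3), and RMI2 312 ± 32.2, 124 ± 12.6 and 298 ± 28.5. The oxaliplatin libraries enter both this comparison and the response to oxaliplatin, so that the opposite signs are not 2 separate observations. FANCD2 (log2FC 0.69), BRCA1 (0.78) and BRIP1 (0.92), which fell with oxaliplatin, were not called here. RAD50, MRE11, NBN and RBBP8, the resection genes other than EXO1, had log2FC of −0.38, −0.15, −0.18 and −0.15. With only the 2 groups fitted, 3 of the 7 calls were left, RAD51AP1, RMI2 and EXO1. Without HCT116 oxpl-R oxaliplatin replicate 2 or 3 or E1A + oxaliplatin replicate 3, 4 were left. With the library indices as covariates all 7 were kept and further genes of the list were called. How many of all genes were called in these fits is not given here.

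**Figure D4:**
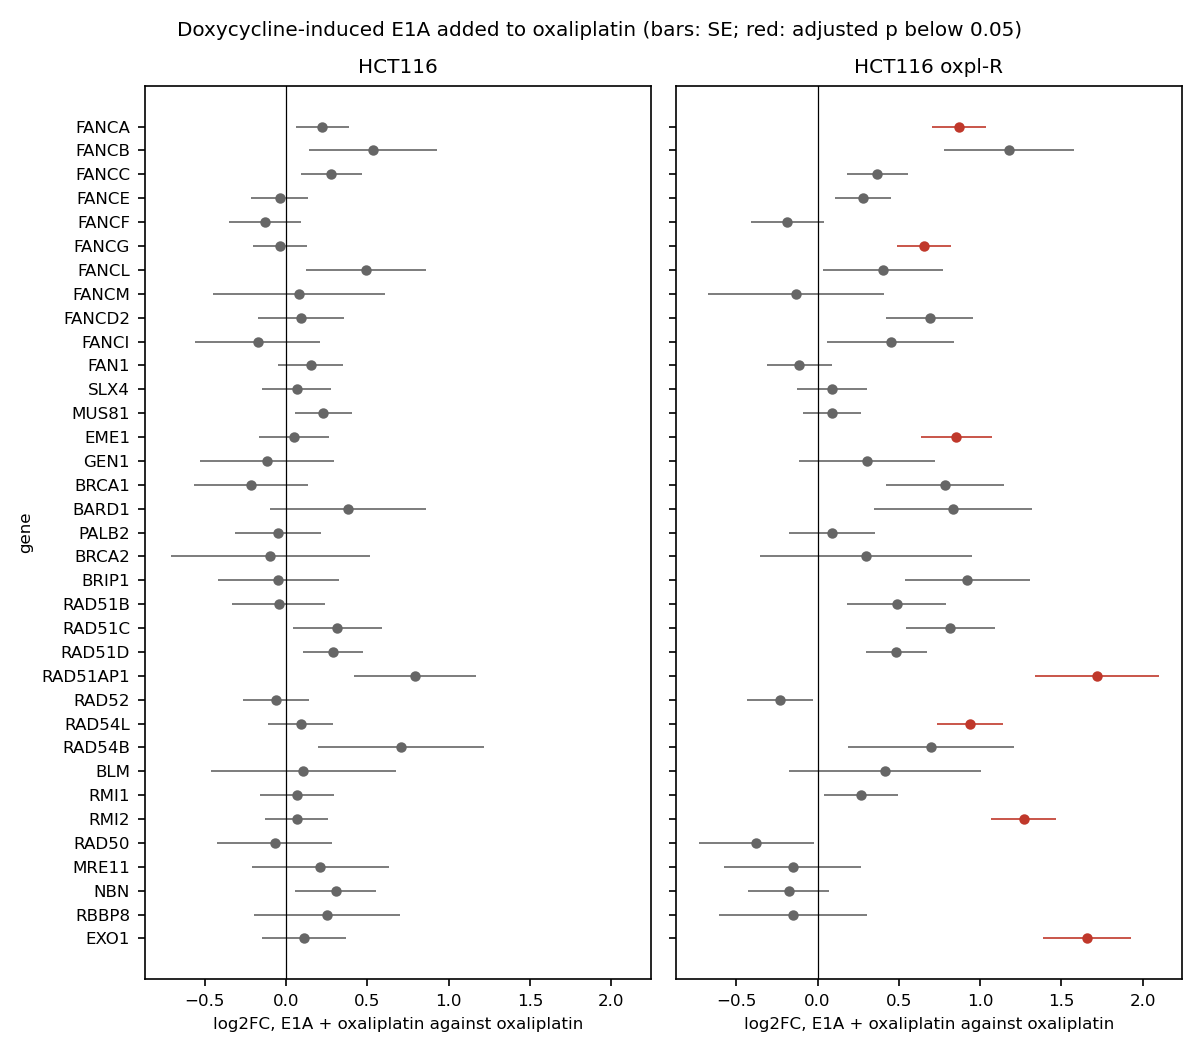
Log2FC with SE bars of the 35 genes (y axis) for E1A + oxaliplatin against oxaliplatin in HCT116 (left) and HCT116 oxpl-R (right), red where the adjusted p-value is below 0.05. On the right 7 genes are red, with RAD51AP1 at 1.72 and EXO1 at 1.66, and on the left none is.

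In HCT116 the same addition gave no call among the 35 genes, with 0.0874% of all genes called higher and 0% lower. The median log2FC was 0.09, and it was 0.48 without HCT116 oxaliplatin replicate 3 and 0.39 without both HCT116 libraries that stand apart, again with no gene called. In HCT116 oxpl-R it ran from 0.25 to 0.73 with single libraries left out. For the addition in HCT116, 1 gene had an unadjusted p-value below 0.05, and DESeq2 called none. EXO1 had 609, 592 and 1017 normalized counts with oxaliplatin and 868, 813 and 710.3 with both agents (log2FC 0.11, SE 0.26, edgeR adjusted p = 1). Whether the effect of doxycycline under oxaliplatin differs between the lines was not tested here. Within a line, the interaction of doxycycline and oxaliplatin gave no call among the 35 genes, where 0.036% of all genes in HCT116 oxpl-R and 0.0103% in HCT116 were called. With the library indices as covariates, some genes of the list were called for this interaction in HCT116 oxpl-R. In HCT116 oxpl-R 7 genes had an unadjusted p-value below 0.05 for it, all above 0, with a smallest adjusted p of 0.357 from edgeR's quasi-likelihood test.

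Genes of the same pathways outside the 35 moved in part alike. Of 46 further crosslink repair and recombination genes 40 were tested, and UBE2T, USP1, WDR48, XRCC2, XRCC3 and ZSWIM7 were not analysed here. In HCT116 oxpl-R, oxaliplatin lowered 11 of the 40 and raised 1, where 5.69% and 5.74% of the genes with a mean of at least 100 counts were called, with a median log2FC of −0.58. The lowest were MND1, a meiotic partner of strand exchange (log2FC −2.16, SE 0.37, edgeR adjusted p = 0.000132), and POLQ, the polymerase of theta-mediated end joining (log2FC −1.82, SE 0.42, edgeR adjusted p = 0.00475). ERCC1, a subunit of the crosslink nuclease XPF-ERCC1, rose (log2FC 0.69, SE 0.16, edgeR adjusted p = 0.0049). In HCT116, 11 fell and 5 rose, where 17.3% and 16.1% of the genes with a mean of at least 100 counts did, so that the 5 lay below that background. Among the 5 was ERCC1 (log2FC 0.91, SE 0.16, edgeR adjusted p = 0.000192). SLX1A and SLX1B also rose there, but they are near-identical copies whose reads could be split between them.

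With doxycycline added to oxaliplatin in HCT116 oxpl-R, 5 of the 40 rose and none fell, against 2.35% and 0.192% of the genes with a mean of at least 100 counts. MND1 rose the most (log2FC 1.62, SE 0.36, edgeR adjusted p = 0.0113). Between the untreated lines, HCT116 oxpl-R had 10 at a lower and 2 at a higher level, against 13.5% and 10.4% of the genes with a mean of at least 100 counts. RECQL4, a helicase gene, was the lowest (log2FC −1.45, SE 0.19, edgeR adjusted p = 1.8e-06), and RTEL1, which unwinds recombination intermediates, the highest (log2FC 1.19, SE 0.18, edgeR adjusted p = 2.02e-05). Under oxaliplatin in both lines 15 of the 40 were lower and 5 higher, against 22.6% and 23.2% of the genes with a mean of at least 100 counts.

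Genes of end joining, the competing way to mend breaks, were listed apart. Of 16 listed genes of end joining and resection control 13 were tested, and XRCC4, XRCC5 and XRCC6 were not analysed here. Oxaliplatin in HCT116 oxpl-R lowered 1, PRKDC, the catalytic subunit of DNA-PK (log2FC −0.82, SE 0.25, edgeR adjusted p = 0.0451), where 5.69% of the genes with a mean of at least 100 counts fell, and in HCT116 it raised 3, PAXX, MAD2L2 and POLM, where 16.1% rose. Between the untreated lines TP53BP1, which restrains resection (log2FC −1.38, SE 0.27, edgeR adjusted p = 0.000675), and NHEJ1 were lower in HCT116 oxpl-R, where 13.5% were lower. TP53BP1 was also lower with oxaliplatin, as were MAD2L2 and PAXX, with E1A, where SHLD3 was higher, and with both agents, as were RIF1 and MAD2L2. None of the 13 was called when doxycycline was added to oxaliplatin in either line.

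Genes of the cell cycle moved with the list. In HCT116 oxpl-R, oxaliplatin lowered 13 of 14 S phase genes (median log2FC −1.82) and 14 of 14 genes of G2 and M (−2.34). In HCT116 it lowered 7 of 14 in each (medians −0.52 and −0.92). Of the genes with a mean of at least 100 counts, 5.69% were lower in HCT116 oxpl-R and 17.3% in HCT116. The S phase genes summed to 2904, 3429 and 3093 CPM in untreated HCT116 oxpl-R, to 1285, 1279 and 1366 with oxaliplatin and to 2633, 2394 and 2513 with both agents. The 34 genes of the list that are in the count table summed to 754, 795 and 909.6 CPM, to 479, 431 and 575 and to 638, 629 and 733 in the same groups. Adding doxycycline to oxaliplatin in this line raised 10 of the 14 S phase genes, CDT1 the most (log2FC 1.82, SE 0.20, edgeR adjusted p = 8.21e-07). It also raised 5 of the 14 genes of G2 and M, where 2.35% of the genes with a mean of at least 100 counts were higher. Between the untreated lines 6 S phase genes were lower and 1 higher, PCNA, which p53 can also induce, and 4 genes of G2 and M were lower. There, 13.5% of the genes with a mean of at least 100 counts were lower and 10.4% higher. By DNA content, at the same oxaliplatin dose but a later time, the study reports that both lines accumulated in G2/M. The part of the cell cycle in the changes of the 35 genes was not tested.

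Targets of p53 went up in both lines. Oxaliplatin raised 9 of 10 in HCT116, all but MDM2 (log2FC 0.46, SE 0.20, edgeR adjusted p = 0.122), and 10 of 10 in HCT116 oxpl-R. Of the genes with a mean of at least 100 counts, 16.1% were higher in HCT116 and 5.74% in HCT116 oxpl-R. CDKN1A (p21), which stops the cycle, had 4307, 4014 and 4341 normalized counts in untreated HCT116 and 62472, 51944 and 50408 with oxaliplatin. In HCT116 oxpl-R it had 15497, 16542 and 17669 and 138221, 121890.0 and 103965. Its level before treatment was already higher in HCT116 oxpl-R (log2FC 1.97, SE 0.18, edgeR adjusted p = 1.65e-09). In all, 7 of the 10 targets were called higher there, against 10.4% of the genes with a mean of at least 100 counts. With both agents CDKN1A held 86524, 85264 and 97909 in HCT116 oxpl-R (log2FC −0.43, SE 0.18, edgeR adjusted p = 0.37), and none of the 10 was called for that addition.

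The 35 genes differed in how closely the libraries of a group agreed. The SD within groups, pooled over the 8 groups on log2(normalized count + 1), ran from 0.14 for RAD51D, 0.15 for MUS81 and FANCE and 0.16 for FANCA and FANCG to 0.83 for FANCM, 0.92 for BLM and 1.00 for BRCA2, with a median of 0.35. It was larger in genes whose transcripts are poor in GC. Across the 35 genes Pearson's r between the spread and the GC content of the transcript was −0.73 and Spearman's rho −0.80, a description over genes that share the same 24 libraries. The 17 genes below the median GC content of 42.4% had a median spread of 0.60, and the other 18 of 0.21. With transcript length, r was 0.35. FANCA, FANCG, RMI2, RAD54L and EXO1 were called in 6 of the 10 comparisons of 2 groups each. FANCM, BARD1, RAD54B, RAD50, MRE11, PALB2, FANCL, FANCF, FAN1, MUS81 and SLX4 were called in none. The spread of FANCM, BARD1, RAD54B, RAD50, MRE11 and FANCL was between 0.54 and 0.83. That of MUS81, SLX4, FAN1, FANCF and PALB2 was smaller, between 0.15 and 0.33. RAD54B had a log2FC of −1.31 in HCT116 with oxaliplatin (SE 0.51, edgeR adjusted p = 0.0779), while BLM, RBBP8 and FANCI, with spreads of 0.92, 0.72 and 0.61, were called in 2 comparisons each.

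**Figure D5:**
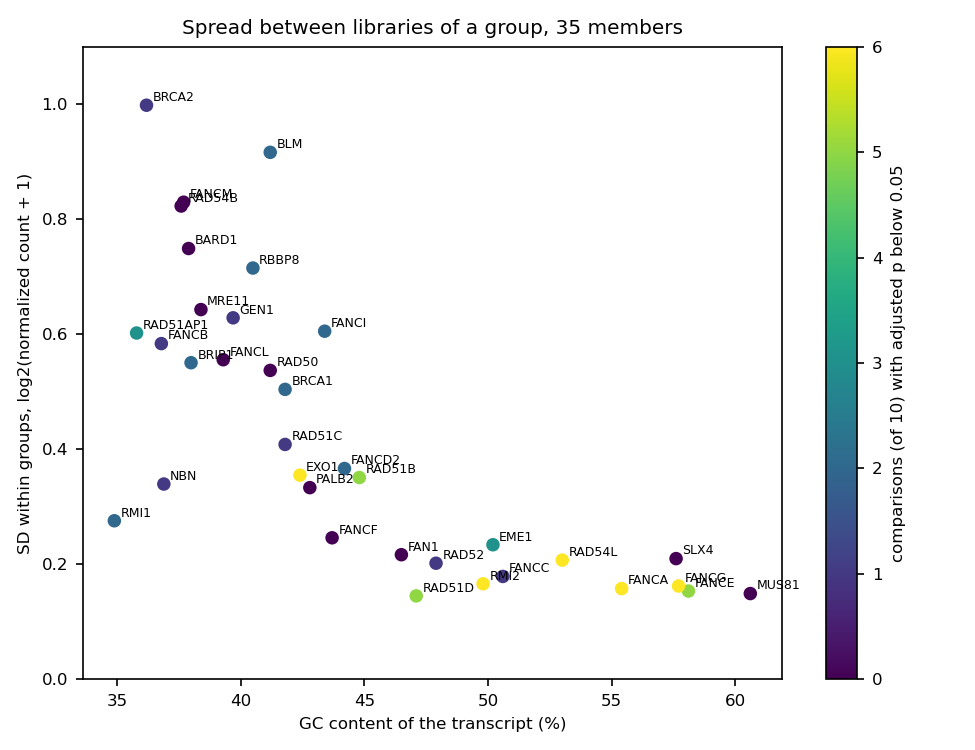
SD within groups of log2(normalized count + 1) (y axis) against GC content of the transcript in percent (x axis) for the 35 genes, coloured by the number of comparisons (of 10) with an adjusted p-value below 0.05. BRCA2 (36.2% GC) lies at 1.00 and MUS81 (60.6% GC) at 0.15.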

How the data were processed

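The authors trimmed the reads with Trimmomatic, quantified them with Salmon 1.6.0 on GRCh38 transcripts, with its sequence and GC bias corrections, and summed them per gene with tximport, and the authors deposited the resulting estimated counts per gene. A second table, named as TPM, was read as length-scaled estimated counts (columns sum to 28004261 to 42613322). As analysed here both tables end mid-alphabet, at SETP6 and TSC22D3. Between 15.9% and 30.4% of values were not whole, and all were rounded. The 35 genes and the other lists were chosen with earlier results of these data known. The comparisons used edgeR 4.0.16 under R 4.3.3 (TMM, quasi-likelihood test, all 24 samples in 1 fit, Benjamini-Hochberg adjustment); SEs derive from the F statistic. DESeq2 1.42.0 served as an alternative. Named genes are the up to 3 largest called changes per direction and comparison, and genes departing from their role group; the text also names further genes, chosen after their values were seen. Positions and transcripts are from GENCODE v44, an earlier release than the authors'. The tests were also run on simulated data, and the outcome is not given here. Depth was 24838095 to 37927720 counts, and how far it limits low genes was not tested.

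Same-numbered samples were regarded as paired where all 3 correlations of their deviations were over 0.1, which held for the lines under oxaliplatin (0.148, 0.199 and 0.265). All 3 were above 0 but 1 was under 0.1 for oxaliplatin in HCT116 oxpl-R (0.0833, 0.509 and 0.595), E1A there (0.0855, 0.5501 and 0.76), E1A added to oxaliplatin there (0.03, 0.269 and 0.299) and the lines with both agents (0.371, 0.00144 and 0.129); where the pairing comes from is not given in the sources used here. Alternatives were RLE size factors, DESeq2, filterByExpr, only the groups compared, the replicate block, the second table, each of the 24 samples left out and, added after seeing the data, 2 libraries left out together and library indices as covariates. No pairing entered the main fit. The replicate block was an effect of replicate number shared by all 8 groups, so that it also covered comparisons that missed the limit of 0.1.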

Additional observations from a re-analysis of the deposited data

Results flagged for a closer look

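The response to oxaliplatin differed between HCT116 oxpl-R and HCT116 for 5 of the 35 genes by the interaction term of edgeR's quasi-likelihood test, where 2.78% of all genes tested and 5.49% of those with a mean of at least 100 counts were called in either direction. The difference on the log2 scale, HCT116 oxpl-R minus HCT116, was −1.31 for FANCG, −1.12 for EME1, −1.04 for RAD54L, −1.29 for RMI2 and −1.58 for EXO1. In each gene all 3 libraries of the oxaliplatin group of HCT116 oxpl-R lay below all 3 untreated libraries of that line. The 5 genes were picked by a test on the same values, so that this describes them and is no further support. S phase genes differed likewise, with 8 of 14 below 0 and called, and their part in these 5 differences was not tested.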

How the results depend on the processing

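Of the 77 gene results past the threshold, 38 stayed past it under all 32 alternatives. Among their 2464 values under an alternative, 2198 were past the threshold in the same direction, 265 were not, and 1 had the other sign: RAD51AP1 with oxaliplatin in HCT116, whose log2FC was 0.24 with the library indices as covariates. The cause was not tested. Of the 32 alternatives, 24 each left out 1 library. For a given comparison many of those libraries belong to no group compared and act only through the fit shared by all groups. The 2198 values therefore include near repeats of the main fit. Of 448 counts of called genes, 415 were within 1.5 times the reported count. Counts in this section stand without the share of all genes called in the same fit and are not set against a background. For oxaliplatin in HCT116 (8 called) RLE size factors gave 5, the covariates 2 and leaving out the 2 HCT116 libraries together 19. For the difference between the lines in that response (5) DESeq2 gave 8, the covariates 8, only the groups compared 3 and leaving out those 2 libraries 9. For E1A added to oxaliplatin in HCT116 oxpl-R (7) the covariates gave 13 and only the groups compared 3. Only the groups compared gave 15 between the untreated lines (9) and 2 for E1A in HCT116 (0), and the covariates gave 2 for the interaction of E1A and oxaliplatin in HCT116 oxpl-R (0). The covariates and the removal of the 2 libraries were added after seeing the data.

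With each library left out in turn, the median log2FC of the 35 genes ran from −1.27 to −0.70 for oxaliplatin in HCT116 oxpl-R, −1.30 to −0.50 for the lines under oxaliplatin and −0.59 to −0.15 for the difference between the lines in that response. The count of called genes ran from 5 to 11 between the untreated lines, 14 to 20 under oxaliplatin, 3 to 7 with E1A, 6 to 16 with both, 1 to 15 for oxaliplatin in HCT116, 11 to 17 in HCT116 oxpl-R, 4 to 7 for E1A added to oxaliplatin in HCT116 oxpl-R and 2 to 7 for the difference between the lines. It was 0 throughout for E1A alone in each line, E1A added to oxaliplatin in HCT116 and the 3 interactions with E1A. The share of all genes called can move between these fits as well, as given above for oxaliplatin in HCT116. These ranges are therefore not results about the 35 genes alone.

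With the replicate number as a block, 19 genes were called for oxaliplatin in HCT116, 18 of them lower, and 19 in HCT116 oxpl-R. Between the lines the block gave 13 untreated, 19 under oxaliplatin, 9 with E1A and 15 with both, and it gave 7 for E1A added to oxaliplatin in HCT116 oxpl-R and 6 for the difference between the lines. These counts stand here without the share of all genes called in the same fit. By the correlations above 0.1 the numbers paired the samples for the lines under oxaliplatin, while within HCT116 oxpl-R 1 of 3 pairs missed that limit. For oxaliplatin in HCT116 the correlations were negative (−0.208, −0.143 and −0.292). The labels give no shared batch.

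With 3 libraries per group, precision was limited by the spread between libraries (SD within groups up to 1.00, in BRCA2). How far depth adds to this was not tested for genes of few counts, such as BRCA2 in HCT116 oxpl-R with oxaliplatin (lowest 16.7 normalized counts). Genes late in the alphabet were not analysed here, and whether replicates were cultured on separate days is not given in the sources used here.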
